A study of Mus musculus with 30 samples.

Results

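The cytochrome P450 genes were described in lungs and spleens of lincRNA-Cox2 mutant, lincRNA-Cox2 knockout and wild type (WT) mice. Members were the genes whose symbol starts with Cyp, a number and a letter, kept when their mean normalized count over the 15 libraries of a tissue was 5 or more in either tissue. The rule kept 47 genes out of 77 symbols of that form, within tables of 19470 lung and 18845 spleen entries. A mean of at least 5 was reached by 37 members in lung and 37 in spleen, by 27 of them in both tissues, by 10 in lung alone and by 10 in spleen alone. Just inside the limit were Cyp2c68 at 5.28 and Cyp2c69 at 5.51, and just outside it were Cyp11a1 at 4.78 and Cyp4f37 at 4.45. The symbol form leaves out Cyp51, the lanosterol demethylase, and the P450 enzymes Ptgis and Tbxas1, which make prostacyclin and thromboxane.

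All mice were 8 weeks old, per the series' design text, and the strain label of every library reads C57BL/6. Mutant, knockout and WT mice received LPS, a bacterial endotoxin, at 20 mg/kg by the intraperitoneal route for 6 h, or PBS as the control. Each tissue had 3 LPS and 2 PBS libraries per genotype, 30 libraries in all, made from messenger RNA. The 6 groups of a tissue were mutant LPS, mutant PBS, knockout LPS, knockout PBS, WT LPS and WT PBS. The labels describe neither allele and do not say that libraries of a group came from separate animals, so the spread behind the authors' p-values may in part be technical. The deposited values are the authors' group means, which carry no error of their own, so a difference between LPS and PBS means is given below without a test. In such bulk samples, fewer cells of a type and less RNA per cell cannot be told apart.

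Cytochrome P450 enzymes are heme proteins that insert an oxygen atom into lipophilic molecules, using electrons passed on by P450 oxidoreductase in the endoplasmic reticulum or by ferredoxin in mitochondria. Some clear drugs and other foreign compounds, and others make or break down fatty acid mediators, oxysterols, steroid hormones, retinoic acid and vitamin D. The liver holds the highest levels of many family members, while the lung expresses a smaller set in club cells, endothelium and alveolar epithelium. By role, 16 members belonged to xenobiotic metabolism, 22 to fatty acid and eicosanoid metabolism, 4 to sterols and bile acids, 2 to vitamin D, 1 to steroid hormones, 1 to retinoids, and Cyp20a1 is an orphan enzyme. A list of genes known for high expression in liver held 19 of the members and left 28 outside it.

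Library depth, recovered from the steps between low group means, was 5.20 to 17.3 M assigned reads in lung and 0.940 to 8.96 M in spleen. The shallowest was a mutant LPS spleen library, in which 1 read added 1.78 to the group mean. The targeted gene lincRNA-Cox2 was listed at 0 in mutant and knockout lungs under LPS and PBS, against authors' means of 30.2 in WT LPS and 34.8 in WT PBS lungs. Ptgs2, its neighbour, had authors' means of 1058 in mutant, 208 in knockout and 1397 in WT LPS lungs. In spleen lincRNA-Cox2 was listed at 0 in both mutant groups and in knockout PBS, and at 0.322 in knockout LPS, against 3.53 in WT LPS and 2.13 in WT PBS, so that the check of the labels rests on lung.

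Lung held far more P450 message than spleen. The members' summed means made up 0.234% of all normalized counts in mutant LPS, 0.372% in mutant PBS, 0.199% in knockout LPS, 0.360% in knockout PBS, 0.258% in WT LPS and 0.395% in WT PBS lungs. The corresponding shares in spleen lay between 0.0271% in mutant LPS and 0.0629% in WT PBS. In each genotype and tissue the share was lower with LPS than with PBS. The sum itself was higher with LPS in knockout spleens, at 1886 normalized counts against 1554 with PBS. It was lower with LPS in the other comparisons, by little in mutant spleens, at 1359.5 against 1433.6. In lung the sum was 24682 in mutant LPS and 27697 in mutant PBS. It was 20595 in knockout LPS and 27955 in knockout PBS, and 25821 in WT LPS and 30821 in WT PBS lungs. In proportion these lung sums differed less than the shares, which also depend on the total of normalized counts. Cyp2f2, the club cell enzyme that activates naphthalene in mouse airways, alone gave 41.3% of the members' sum in knockout LPS lungs and 53.5% in WT PBS lungs, the lowest and the highest of the 6 groups. Together with Cyp2b10 and Cyp4b1 it had the highest means over 15 lung libraries, of 12600, 4120 and 4110 normalized counts. Divided by exon length, these 3 genes stood at 6222, 1951 and 1822 normalized counts per kb, ahead of Cyp2a5 at 346 and Cyp2s1 at 182 per kb.

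In spleen the order was different. Cyp1b1, an enzyme of polycyclic hydrocarbons and oestrogens that is expressed in stromal cells, was highest with a mean of 550 over 15 libraries, or 94.2 normalized counts per kb. Next per kb came Cyp2e1 at 61.2, the ethanol-oxidising enzyme of liver and fat, and Cyp4f18 at 58.2, which inactivates leukotriene B4 in mouse leukocytes. Cyp2f2 followed at 38.6 per kb. The plot of levels in both tissues shows these genes apart from a group of liver-enriched members whose spleen means over 15 libraries lay between 5.28 and 11.7. The tables of the tissues were normalized apart, so that a level is compared only within a tissue.

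**Figure D1:**
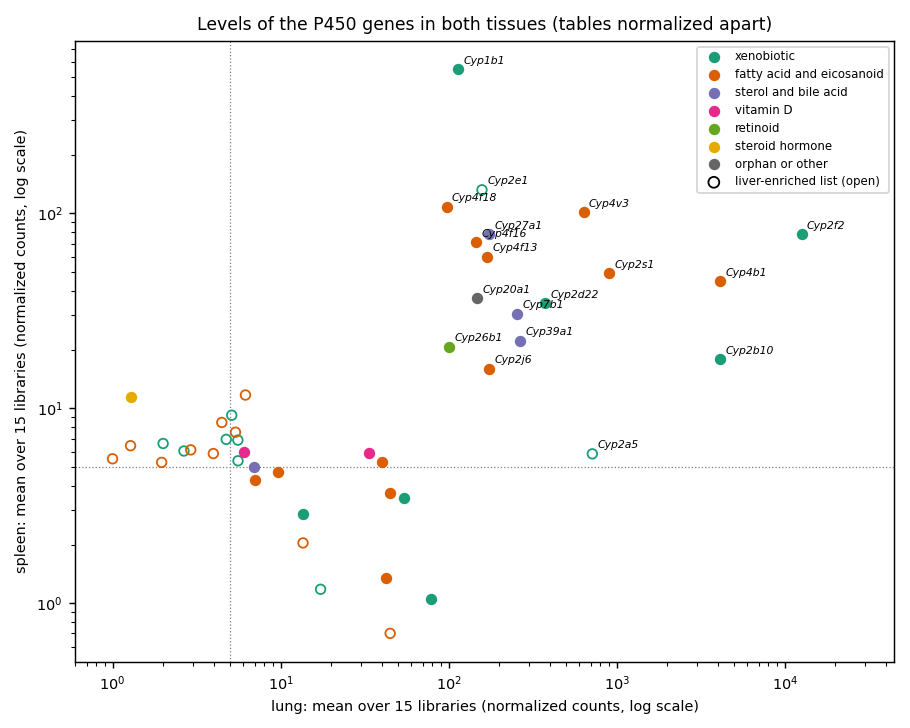
Mean normalized count over 15 libraries for each of the 47 P450 genes in lung (horizontal, log scale) and spleen (vertical, log scale), coloured by role, with members of the liver-enriched list drawn open. Dotted lines mark the mean of 5 used to keep a gene. Cyp2f2 stands at 12600 in lung, and Cyp1b1 is the highest in spleen at 550.

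The first question the design poses is how these genes differed between LPS and PBS. For each genotype the ratio is given as log2((LPS mean + 1)/(PBS mean + 1)), over genes whose LPS or PBS mean was 10 or more, and a gene is counted when the ratio reaches 2-fold. In mutant lungs 30 members could be measured, 2 of them at least 2-fold higher and 9 at least 2-fold lower, beside 15.5% and 16% of all genes, and the median log2 ratio was -0.47. Without the limit on low means the mutant counts turned round, to 14 higher and 11 lower. In knockout lungs 10 of 38 were higher and 10 lower, beside 16.9% and 17.7% of all genes, with a median of -0.53. In WT lungs 3 of 31 were higher and 11 lower, beside 13.9% and 14.3% of all genes, with a median of -0.39. The median over all genes stayed between -0.03 and -0.01 in the lung comparisons.

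Of the 30 members measured in all 3 genotypes in lung, 2 were at least 2-fold higher in each genotype, Cyp27b1 and Cyp7b1, beside 11.3% of all genes. A further 7 were at least 2-fold lower in each, beside 10.3% of all genes, namely Cyp1a1, Cyp26b1, Cyp2d22, Cyp2e1, Cyp2j9, Cyp3a13 and Cyp46a1. With 30 members, a count of 2 higher is near the share of all genes, while the share lower was above it. Neither was tested.

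**Figure D2:**
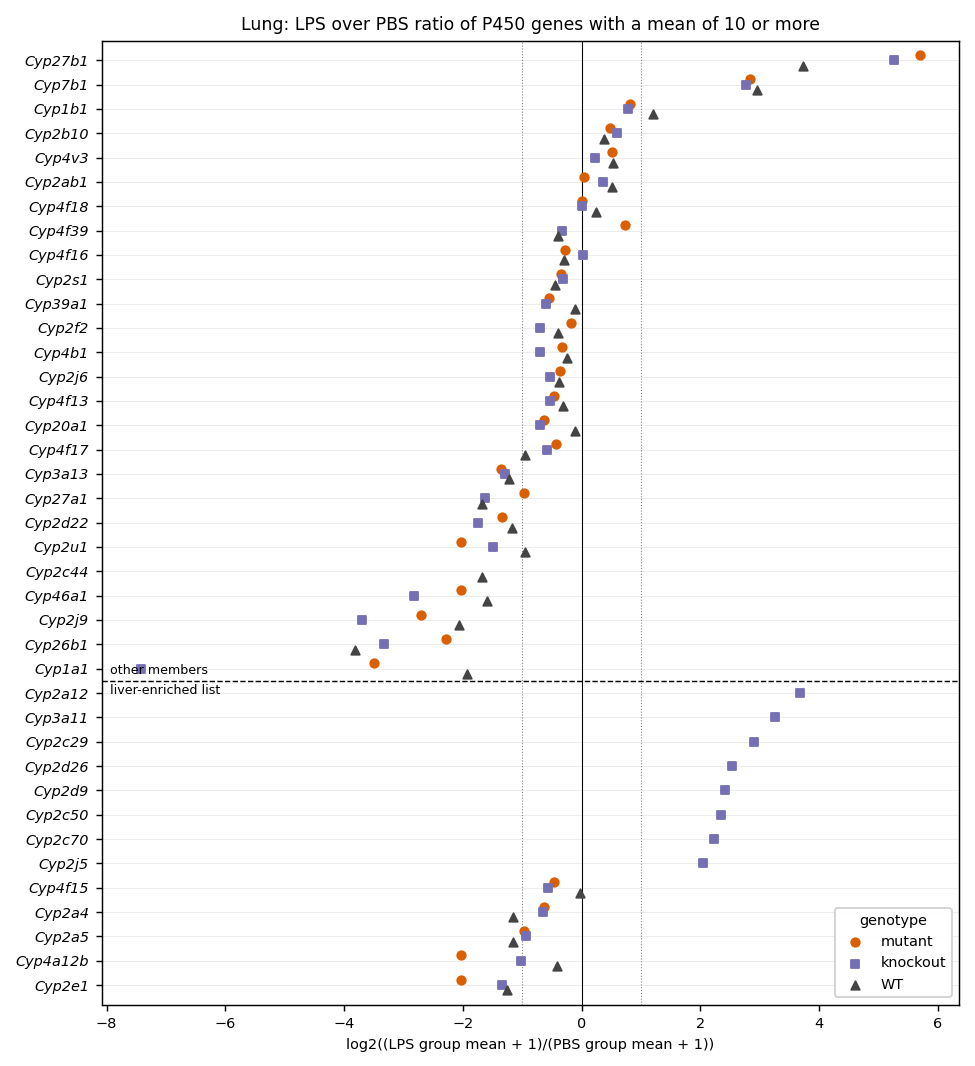
log2((LPS mean + 1)/(PBS mean + 1)) in lung for every P450 gene whose LPS or PBS mean was 10 or more, with mutant, knockout and WT as separate symbols. The dashed line divides the liver-enriched list (below) from other members, dotted lines mark 2-fold, and a missing symbol means that the gene was under 10 in both groups of that genotype. Cyp27b1 and Cyp7b1 lie to the right in all genotypes. In knockout lungs 8 liver-enriched genes lie to the right, and they have no mutant or WT symbol because they were under 10 there. Their ratios that are not drawn lay between 0.87 and 1.94 in mutant and between -1.46 and 0.47 in WT lungs.

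Cyp27b1 encodes the 1-alpha-hydroxylase that makes the active hormone of vitamin D, and is known to be switched on in activated macrophages. It had the highest LPS ratio of the members in lung. The authors' means were 62.4 in mutant LPS and 0.215 in mutant PBS lungs, 63.6 in knockout LPS and 0.686 in knockout PBS lungs, and 40.9 in WT LPS and 2.17 in WT PBS lungs. Its PBS means rest on 1 read in mutant, 2 reads in knockout and 4 reads in WT lungs. The log2 ratios were 5.71 in mutant, 5.26 in knockout and 3.72 in WT lungs. Cyp27b1 lies at chr10:127048250-127053006 on the plus strand of mm10. Cyp2r1, the vitamin D 25-hydroxylase, stayed low, with authors' means of 3.33, 3.92 and 7.93 in mutant, knockout and WT LPS lungs and 7.75, 5.16 and 9.47 in the PBS lungs of the same genotypes. Vdr, the receptor of the hormone, had log2 ratios of 1.00, 0.39 and 0.90 in mutant, knockout and WT lungs.

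Cyp7b1, the oxysterol 7-alpha-hydroxylase, was the other gene that was at least 2-fold higher with LPS in each genotype. It converts 25-hydroxycholesterol, the product of Ch25h, to more polar sterols. The authors' means were 373 in mutant LPS and 51.1 in mutant PBS, 408 in knockout LPS and 58.9 in knockout PBS, and 389 in WT LPS and 49.2 in WT PBS lungs, so that all LPS means lay above all PBS means. The log2 ratios of 2.84, 2.77 and 2.96 in mutant, knockout and WT lungs were close to each other. Ch25h moved with it, with authors' means of 771, 757 and 686 in mutant, knockout and WT LPS lungs, against 66.9, 66.5 and 47.6 with PBS. The other sterol enzymes among the members stood lower with LPS. Cyp51, which the symbol form leaves out, had log2 ratios of 0.60, 0.30 and 0.47 in mutant, knockout and WT lungs. Cyp27a1, the sterol 27-hydroxylase, had means of 135, 87.2 and 94.0 in mutant, knockout and WT LPS lungs, against 266, 270 and 302 with PBS. Cyp46a1, the cholesterol 24-hydroxylase, had means of 2.02, 1.47 and 3.74 with LPS, against 11.4, 16.4 and 13.3 with PBS. Its knockout LPS value rests on 3 reads in 2 libraries. Cyp39a1, which acts on 24-hydroxycholesterol, differed less, with log2 ratios of -0.54, -0.61 and -0.11.

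Cyp26b1 degrades retinoic acid, and it had the lowest ratio of the members in WT lungs. The authors' means were 31.5 in mutant LPS and 158 in mutant PBS, 17.3 in knockout LPS and 182 in knockout PBS, and 21.4 in WT LPS and 315 in WT PBS lungs. Every LPS mean was thus under every PBS mean, with log2 ratios of -2.29, -3.32 and -3.82 in mutant, knockout and WT lungs. Its paralog Cyp26a1, which was too low to be kept, had lung means of at most 2.08 in any group. Of 8 listed endothelial markers, 6 were at least 2-fold lower with LPS in mutant, 6 in knockout and 5 in WT lungs, with median log2 ratios of -1.47, -2.28 and -1.85, and 1 was at least 2-fold higher in knockout lungs. Their part in the lower Cyp26b1 means was not tested. Among the other retinoid genes of the fixed list, Stra6, the retinol transporter, had means of 82.4, 72.1 and 104 in mutant, knockout and WT LPS lungs, against 2.13, 3.09 and 5.23 with PBS.

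Cyp1a1 and Cyp1b1 are classic targets of the aryl hydrocarbon receptor Ahr, and they differed in opposite directions in lung. Cyp1a1 had authors' means of 7.93 in mutant LPS and 100 in mutant PBS, 1.27 in knockout LPS and 389 in knockout PBS, and 15.1 in WT LPS and 60.5 in WT PBS lungs. The knockout LPS value rests on 3 reads in 2 of the 3 libraries. All LPS means lay below all PBS means, with log2 ratios of -3.50, -7.42 and -1.93 in mutant, knockout and WT lungs. Cyp1b1 had means of 133 in mutant LPS and 75.0 in mutant PBS, 141 in knockout LPS and 81.9 in knockout PBS, and 147 in WT LPS and 63.3 in WT PBS lungs. Its log2 ratios of 0.82, 0.78 and 1.20 reached 2-fold in WT lungs alone, a difference between genotypes that was not tested. Ahr itself had means of 294, 277 and 315 in mutant, knockout and WT LPS lungs, against 1010, 1100 and 930 with PBS, and Tiparp, another Ahr target, had means of 3290, 2430 and 2470 against 414, 449 and 400.

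The promoters of this pair are shown because both hold the core of the Ahr response element, GCGTG, and because Cyp27b1 and Cyp26b1, with the highest and the lowest WT ratios in lung, hold none in the same window. Each line gives the 250 bases before the RefSeq start on GRCm38.p6, 5′ to 3′ on the gene's strand, with the core on either strand in capitals. They span chr9:57697363-57697612 on the plus strand for Cyp1a1, chr17:79715062-79715311 on the minus strand for Cyp1b1, chr10:127047996-127048245 on the plus strand for Cyp27b1 and chr6:84593811-84594060 on the minus strand for Cyp26b1.
Cyp1a1: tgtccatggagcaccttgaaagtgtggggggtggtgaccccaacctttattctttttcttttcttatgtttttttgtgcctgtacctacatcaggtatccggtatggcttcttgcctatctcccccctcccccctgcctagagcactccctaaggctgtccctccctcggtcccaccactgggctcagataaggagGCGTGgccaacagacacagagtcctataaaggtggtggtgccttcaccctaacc
Cyp1b1: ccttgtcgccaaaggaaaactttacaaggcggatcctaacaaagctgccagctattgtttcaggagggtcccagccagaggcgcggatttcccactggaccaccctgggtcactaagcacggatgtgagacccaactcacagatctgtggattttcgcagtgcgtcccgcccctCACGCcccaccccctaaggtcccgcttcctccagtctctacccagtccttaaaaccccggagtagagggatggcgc
Cyp27b1: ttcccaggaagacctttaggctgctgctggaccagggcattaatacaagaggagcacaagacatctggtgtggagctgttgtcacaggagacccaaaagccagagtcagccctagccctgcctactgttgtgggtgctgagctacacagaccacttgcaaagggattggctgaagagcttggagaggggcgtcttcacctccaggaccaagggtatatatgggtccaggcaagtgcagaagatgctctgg
Cyp26b1: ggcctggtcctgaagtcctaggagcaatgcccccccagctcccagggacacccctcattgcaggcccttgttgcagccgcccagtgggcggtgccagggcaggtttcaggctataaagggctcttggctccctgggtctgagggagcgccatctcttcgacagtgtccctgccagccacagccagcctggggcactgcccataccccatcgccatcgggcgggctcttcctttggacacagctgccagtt
In Cyp1a1 the core starts 54 bases before the start on the same strand as the gene, and in Cyp1b1 it starts 76 bases before it as CACGC, the core on the opposite strand. The RefSeq table held promoters for 39 of the 47 members, and 11 of these, 28.2%, contained GCGTG or CACGC, beside 28.2% of all 32851 promoters. A match of 5 letters is a description of the sequence and not a binding site, and its absence says only that these letters are not in this window.

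**Figure D3:**
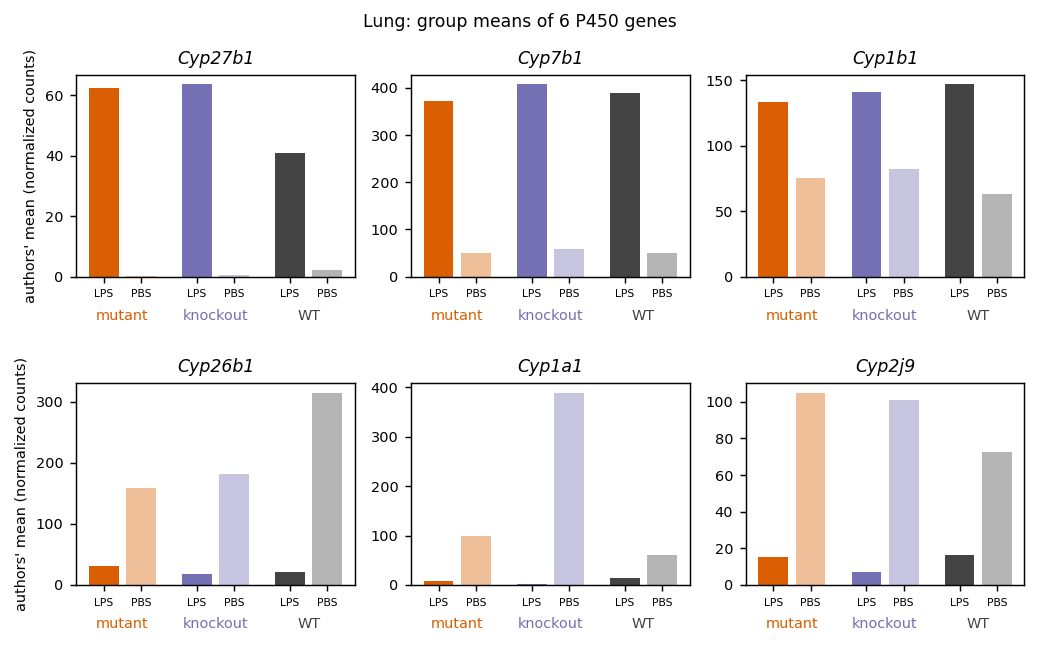
Authors' means in normalized counts (vertical, linear from 0) of 6 P450 genes in the 6 lung groups, with mutant, knockout and WT from left to right and LPS (dark) left of PBS (pale). The deposited means carry no error bars. Cyp27b1, Cyp7b1 and Cyp1b1 are higher in each LPS group than in its PBS group, and Cyp26b1, Cyp1a1 and Cyp2j9 are lower.

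The most abundant xenobiotic enzymes of the lung differed little with LPS. Cyp2f2 had authors' means of 12400 in mutant LPS and 14000 in mutant PBS, 8510 in knockout LPS and 13900 in knockout PBS, and 12600 in WT LPS and 16500 in WT PBS lungs, with log2 ratios of -0.18, -0.71 and -0.39. Cyp2b10, a drug-metabolising enzyme induced through the receptor CAR, was slightly higher in each genotype, with log2 ratios of 0.49, 0.60 and 0.38. The sum of the 7 club cell markers was 46818 in mutant LPS and 38833 in mutant PBS, 46617 in knockout LPS and 36165 in knockout PBS, and 39776 in WT LPS and 50329 in WT PBS lungs. The Cyp2f2 mean was therefore lower with LPS in mutant and knockout lungs, in which this sum was higher. Scgb1a1 alone had means of 30000 and 32300 in mutant and knockout LPS lungs, against 18400 and 16700 with PBS. That is a larger difference than that of the sum. Of the 7 markers, 2 in mutant, 2 in knockout and 5 in WT lungs were lower with LPS. Lower levels with LPS were found for several less abundant xenobiotic members. Cyp2d22 had means of 246, 199 and 223 in mutant, knockout and WT LPS lungs, against 628, 672 and 504 with PBS. Cyp3a13, an extrahepatic member of the Cyp3a group, had means of 37.1, 30.4 and 34.6 against 96.1, 75.9 and 82.1. Cyp2e1 had means of 64.8, 103 and 103 against 267, 263 and 246, and Cyp2a5, the coumarin 7-hydroxylase, had means of 675, 399 and 450 against 1320, 764 and 1000. Cyp2ab1, with group means from 9.28 to 20.3, had log2 ratios of 0.04, 0.36 and 0.51.

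Among the 22 fatty acid and eicosanoid enzymes, 13 could be measured in mutant, 17 in knockout and 14 in WT lungs. At least 2-fold higher were 0 in mutant, 4 in knockout and 0 in WT lungs, beside 15.5%, 16.9% and 13.9% of all genes, and at least 2-fold lower were 3, 3 and 2, beside 16%, 17.7% and 14.3%. The 4 higher in knockout lungs were all on the liver-enriched list. Cyp2j9, an arachidonic acid epoxygenase, stood out as lower, with authors' means of 15.2 in mutant LPS and 105 in mutant PBS, 6.84 in knockout LPS and 101 in knockout PBS, and 16.6 in WT LPS and 72.4 in WT PBS lungs. Its log2 ratios were -2.71, -3.70 and -2.06, whereas its paralog Cyp2j6 had -0.36, -0.54 and -0.38. Cyp2u1, a fatty acid omega-hydroxylase, had means of 4.26, 5.20 and 5.96 in mutant, knockout and WT LPS lungs, against 20.4, 16.4 and 12.5 with PBS. Cyp4b1, the abundant lung enzyme that activates 4-ipomeanol, had log2 ratios of -0.32, -0.70 and -0.25, and Cyp2s1 had -0.35, -0.31 and -0.45. Cyp4v3, the mouse counterpart of the human retinal disease gene CYP4V2, was slightly higher, at 0.51, 0.23 and 0.52. Cyp4f18 was flat, with means of 120, 87.8 and 89.6 in mutant, knockout and WT LPS lungs, against 120, 87.3 and 76.0 with PBS, while the sum of 7 neutrophil markers was 20183, 20654 and 19125 against 3017, 2442 and 2625. Soluble epoxide hydrolase Ephx2, which breaks down the products of the epoxygenases, had means of 19.2, 37.0 and 19.9 against 63.1, 51.3 and 56.8.

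The liver-enriched members differed between genotypes in lung, a difference that was not tested. Over all 19 of them, the median of the means was 2.85 in mutant LPS and 0 in mutant PBS, 14.5 in knockout LPS and 2.08 in knockout PBS, and 2.14 in WT LPS and 3.94 in WT PBS lungs. The LPS mean was above the PBS mean for 13 of the 19 in mutant, 13 in knockout and 2 in WT lungs. In knockout lungs 8 reached a mean of 10 with LPS alone, and so passed the limit through the group in which they were high, and these 8 were under 10 in both groups of mutant and WT lungs. Cyp2a12 had authors' means of 20.7 in knockout LPS and 0.695 in knockout PBS lungs, Cyp2c29 had 22.0 and 2.08, and Cyp3a11, the main drug-metabolising Cyp3a enzyme of mouse liver, had 18.5 and 1.03. Off that list, knockout lungs had 2 of 25 members higher and 8 lower. Hepatocyte markers were at least 2-fold higher with LPS for 14 of 14 genes in mutant and in knockout lungs, and for 4 of 14 in WT lungs, where 1 was lower and the median log2 ratio was -0.39. The 5 liver-enriched members with a mean of 10 or more in mutant lungs, among them Cyp2a5 and Cyp2e1, were all lower with LPS there. Of these 5, 4 reached that mean in both groups and 1 with PBS alone. The sum of the 14 hepatocyte markers was 1993 in mutant LPS and 70.0 in mutant PBS, 6386 in knockout LPS and 263 in knockout PBS, and 1258 in WT LPS and 720 in WT PBS lungs. Albumin, Alb, had means of 462, 2460 and 242 in mutant, knockout and WT LPS lungs, against 9.08, 110 and 370 with PBS. Their part in the Cyp means was not tested.

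The low means could be split into whole reads per library. In mutant LPS lungs 12 liver-enriched members had a single solution, and all 12 had reads in the same library. That library held 56 of their 58 reads, and the other 2 libraries held 0 and 2. In WT PBS lungs, 14 such members had 78 reads in 1 library and 22 in the other. The label of that library is not known from a group mean. The same split was not possible for the higher knockout LPS means.

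In mutant spleens 6 of 23 members were at least 2-fold higher with LPS and 8 lower, beside 15.3% and 16.7% of all genes, with a median log2 ratio of -0.34. Without the limit on low means the mutant values turned round, to 18 higher and 14 lower and a median of 0.88. In knockout spleens 17 of 31 were higher and 7 lower, beside 16.6% and 18.7% of all genes, with a median of 1.56. Of these 31, 14 reached a mean of 10 with LPS alone, and without that limit the median was 0.45. In WT spleens 0 of 29 were higher and 18 lower, beside 13.5% and 14.8% of all genes, with a median of -1.56, and 12 of the 29 reached a mean of 10 with PBS alone. The median over all genes lay between -0.02 and 0.02. Most of the higher members in mutant and knockout spleens, and most of the lower ones in WT spleens, were on the liver-enriched list. Off that list, 2 of 18 members were higher and 8 lower in mutant, 6 of 19 higher and 7 lower in knockout, and 0 of 17 higher and 6 lower in WT spleens, and the medians were -0.60, -0.62 and -0.83. These differences between genotypes were not tested, since single libraries were not analysed here.

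**Figure D4:**
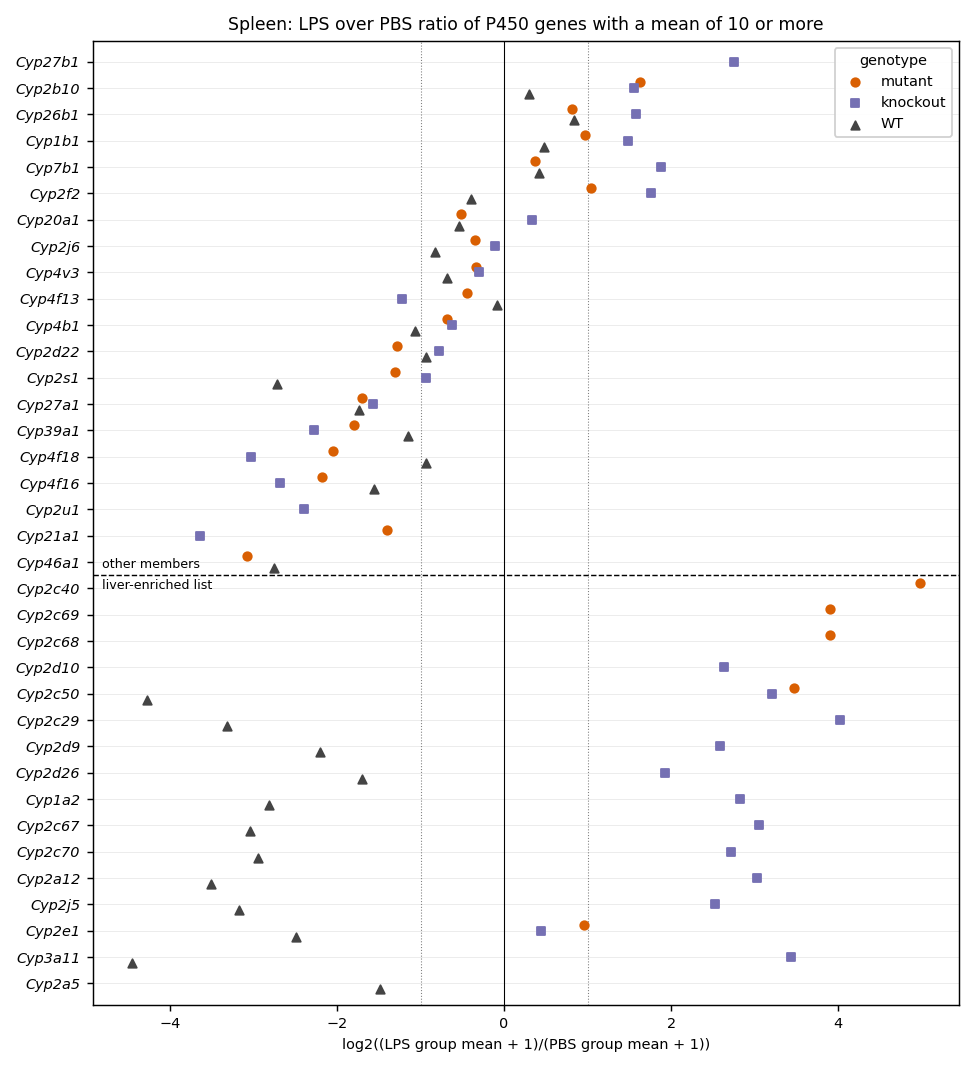
log2((LPS mean + 1)/(PBS mean + 1)) in spleen for every P450 gene whose LPS or PBS mean was 10 or more, with mutant, knockout and WT as separate symbols. The dashed line divides the liver-enriched list (below) from other members, and dotted lines mark 2-fold. Below the line, the WT points lie between -4.45 and -1.48, and the knockout points between 0.45 and 4.02.

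Of 18 members measured in all genotypes in spleen, 3 were at least 2-fold lower with LPS in each, Cyp27a1, Cyp39a1 and Cyp4f16, and 0 were higher in each, beside 7.98% of all genes in either direction. Cyp27a1 had authors' means of 45.2 in mutant LPS and 149 in mutant PBS, 42.0 in knockout LPS and 127 in knockout PBS, and 36.6 in WT LPS and 124 in WT PBS spleens. Its log2 ratios of -1.70, -1.57 and -1.73 were close to each other, and the gene was lower with LPS in both tissues. Cyp39a1 had means of 9.08, 8.23 and 16.5 in mutant, knockout and WT LPS spleens, against 34.1, 43.5 and 38.0 with PBS. Cyp4f16 had means of 29.3, 23.8 and 35.6 against 136, 158 and 107, while in lung its log2 ratios lay between -0.30 and 0.03. Cyp46a1 was low, at 0.879, 1.96 and 0.640 with LPS against 14.8, 7.55 and 10.1 with PBS.

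Cyp4f18, flat in lung, was lower with LPS in spleen. Its authors' means were 48.7 in mutant LPS and 205 in mutant PBS, 25.9 in knockout LPS and 219 in knockout PBS, and 79.6 in WT LPS and 153 in WT PBS spleens, so that all LPS means lay below all PBS means. The log2 ratios were -2.05, -3.03 and -0.93. The sum of 6 B cell markers ran in the same order, at 4454 in mutant LPS and 10647 in mutant PBS, 4047 in knockout LPS and 11192 in knockout PBS, and 7233 in WT LPS and 8369 in WT PBS spleens. Of these 6 markers, 5 in mutant, 6 in knockout and 3 in WT spleens were lower with LPS. Their median log2 ratios were -1.24, -1.10 and -0.09, so in WT spleens the single markers were split. The sum of neutrophil markers went the other way from Cyp4f18 in spleen. With LPS this sum was 8573, 2246 and 3418 in mutant, knockout and WT spleens, against 2009, 1860 and 3019 with PBS. Single neutrophil markers were mixed, with 1, 2 and 3 of 7 lower with LPS in mutant, knockout and WT spleens. Their median log2 ratios were 1.90, 0.34 and 0.20. The part of either cell type in the lower Cyp4f18 means was not tested. Cyp2s1 was lower as well, with log2 ratios of -1.31, -0.93 and -2.72, and Cyp4f13 had -0.44, -1.23 and -0.08.

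Cyp1b1, the highest member of the spleen, had authors' means of 516 in mutant LPS and 264 in mutant PBS, 892 in knockout LPS and 319 in knockout PBS, and 644 in WT LPS and 463 in WT PBS spleens. It was therefore higher with LPS in each genotype, as in lung, with log2 ratios of 0.96, 1.48 and 0.48. Cyp26b1 went the other way from lung, with means of 22.4, 27.8 and 29.0 in mutant, knockout and WT LPS spleens, against 12.3, 8.65 and 15.8 with PBS. Cyp7b1 had means of 25.9, 48.4 and 37.8 against 19.8, 12.4 and 28.0, and Ch25h had 34.7, 139 and 49.4 against 12.2, 10.7 and 8.56. Cyp27b1 was again higher with LPS, but at low levels, with means of 6.72, 14.4 and 7.01 against 0.242, 1.29 and 0.561. Vdr had log2 ratios of 4.00, 4.22 and 3.80 there. Cyp1a1 was nearly absent from spleen, with at most 2.47 in any group.

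Markers of other tissues were found beside some members in spleen. Cyp2f2 had authors' means of 114 in mutant LPS and 55.0 in mutant PBS, 111 in knockout LPS and 32.1 in knockout PBS, and 57.5 in WT LPS and 76.0 in WT PBS spleens. The club cell secretory protein Scgb1a1, which the spleen is not known to make, was present in each of these groups, at 1390 and 631 in mutant LPS and PBS, 844 and 374 in knockout LPS and PBS, and 790 and 639 in WT LPS and PBS. It was higher with LPS in all genotypes, whereas Cyp2f2 was lower with LPS in WT spleens. Cyp2e1 had means of 53.1 and 26.8 in mutant LPS and PBS, 125 and 91.5 in knockout LPS and PBS, and 83.7 and 476 in WT LPS and PBS spleens. The fat cell hormone Adipoq was at 43.0 and 13.2, 157 and 120, and 119 and 271 in the same groups. Cyp21a1, the steroid 21-hydroxylase of the adrenal, had means of 10.8, 1.05 and 2.29 in mutant, knockout and WT LPS spleens, against 30.2, 24.6 and 9.74 with PBS, and Star, which carries cholesterol into mitochondria for steroid synthesis, had 72.3, 82.5 and 79.9 against 393, 448 and 499. The part of cells of other tissues in these means was not tested.

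The liver-enriched members differed in direction between the genotypes in spleen, a difference that was not tested. Over all 19 of them, with no limit on low means, the LPS mean was above the PBS mean for 17 in mutant and 18 in knockout spleens and below it for all 19 in WT spleens. The median of the 19 means was 7.62 in mutant LPS and 0 in mutant PBS, 12.8 in knockout LPS and 1.19 in knockout PBS, and 0.64 in WT LPS and 12.2 in WT PBS spleens. These levels are low, and of the members that reached a mean of 10, all but 1 in each genotype did so only in the group in which they were high. Cyp2c50 had authors' means of 10.1 in mutant LPS and 0 in mutant PBS, 19.2 in knockout LPS and 1.19 in knockout PBS, and 0 in WT LPS and 18.3 in WT PBS spleens. Cyp2c29 had 9.70 and 0, 28.2 and 0.795, and 1.83 and 27.1 in the same groups. Of the 19 listed genes, 7 were listed at 0 in WT LPS and 12 in mutant PBS spleens, while 12 had a mean of at least 10 in WT PBS and 12 in knockout LPS spleens. Hepatocyte markers were high and low in the same groups, with a sum of 4230 in mutant LPS and 36.8 in mutant PBS, 6091 in knockout LPS and 212 in knockout PBS, and 385 in WT LPS and 2025 in WT PBS spleens. In knockout PBS spleens, 14 of these Cyp genes had 49 of their 55 reads in 1 of the 2 libraries. For mutant LPS spleens the reads of 6 of these Cyp genes could be split, 1 of them listed at 0. Of their 25 reads, 21 lay in 1 library, 4 in another and 0 in the third. The other mutant LPS means had no single split. All 14 of the hepatocyte markers were at least 2-fold higher with LPS in mutant and in knockout spleens, and 13 of 14 were at least 2-fold lower in WT spleens. Their part in the Cyp means was not tested.

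**Figure D5:**
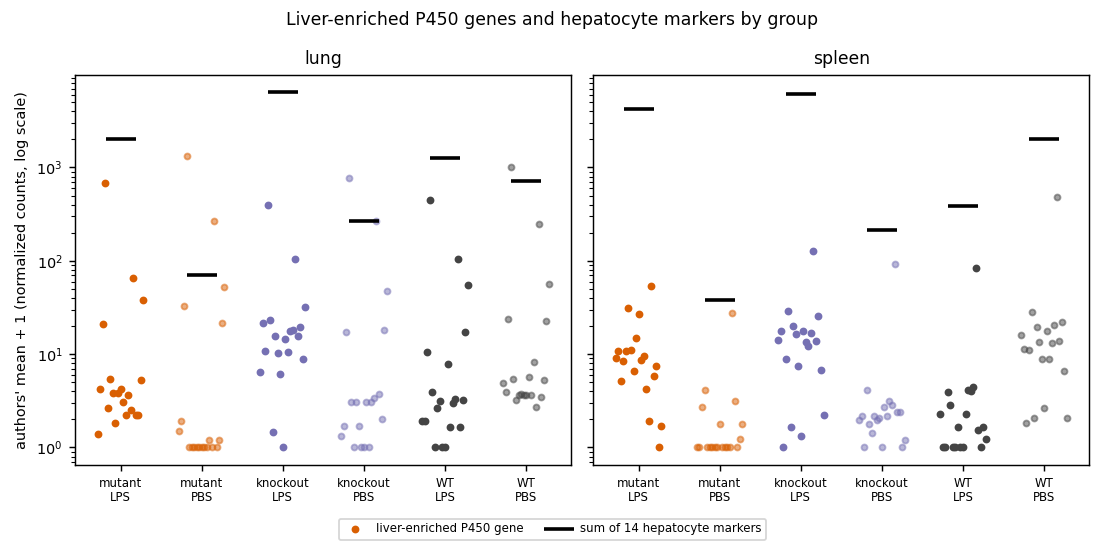
Authors' mean + 1 (vertical, log scale) of each of the 19 liver-enriched P450 genes (points) and of the sum of 14 hepatocyte markers (bars) in the 6 groups of lung and spleen, with mutant, knockout and WT from left to right and LPS left of PBS. In spleen the points and the bars are both high in mutant LPS, knockout LPS and WT PBS and low in the other groups; a point at 1 is a gene listed at 0.

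Within the liver-enriched set, different genes carried the mutant and the knockout LPS values. Cyp2c40 and Cyp2c69, which are female-predominant in mouse liver, had authors' means of 30.5 and 25.6 in mutant LPS spleens and of 0.644 and 0.322 in knockout LPS spleens, and both were listed at 0 in WT LPS spleens. Cyp2d9, a male-specific steroid hydroxylase of mouse liver, had means of 0.913 in mutant LPS, 16.0 in knockout LPS and 3.48 in WT LPS spleens. In lung, Cyp2d9 had means of 1.53 in mutant LPS, 17.2 in knockout LPS and 2.32 in WT LPS, and Cyp2c40 had 4.48, 0.463 and 0. Xist, expressed from the inactive X chromosome of females, was at 4670 in mutant LPS, 33.7 in knockout LPS and 31.3 in WT LPS spleens, and the Y-linked Ddx3y was at 14.0, 601 and 705. In the PBS groups of both tissues, Xist lay between 1910 and 4040 and Ddx3y between 198 and 447. Each LPS group thus differed from its PBS group in these markers as well. The part of sex in the Cyp values was not tested, and among the LPS groups the mutant genotype and the female markers cannot be told apart. Cyp2c40 shares 60.3% of its 50-base windows with other Cyp transcripts, mainly Cyp2c69, and Cyp2c69 shares 54.3%, so that the authors' counting could split reads between them.

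The second question is whether either line differed from WT, for which the authors' deposited table gives DESeq2 comparisons. In the authors' deposited table, 0 of the 47 members had an adjusted p below 0.05 in any of the 12 comparisons of genotypes within a tissue and treatment. Unadjusted p-values and a second test were not used here. The background in the authors' deposited table was low too. It was 0.0715% of genes for mutant over WT and 0.441% for knockout over WT in LPS lungs, and 0.00524% and 0.0421% in PBS lungs. In LPS spleens it was 0.00545% for mutant over WT and 0.0241% for knockout over WT, and in PBS spleens 0% and 0.16%. Knockout over mutant gave 0.243% in LPS lungs, 0.0523% in PBS lungs, 0.177% in LPS spleens and 0% in PBS spleens. The number of members with an adjusted p in the authors' deposited table was 37 to 44 in 10 of the comparisons, 15 for knockout over mutant in LPS spleens and 1 for knockout over WT in PBS spleens.

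With the looser limit of 0.1, 1 member passed in all comparisons together, for knockout over WT in LPS spleens, beside 0.133% of genes there. The share of genes at that limit in the authors' deposited table was 0.0954% for mutant over WT and 0.766% for knockout over WT in LPS lungs, 0.00524% and 0.0474% in PBS lungs, 0.00545% for mutant over WT in LPS spleens and 0% and 0.384% for the 2 lines in PBS spleens. Knockout over mutant gave 0.512% and 0.0523% in LPS and PBS lungs, and 0.371% and 0% in LPS and PBS spleens. Cyp3a11 had authors' means of 24.8 in knockout LPS and 0 in WT LPS spleens, and the authors' deposited table gives it a log2 fold of 2.82 (DESeq2, adjusted p = 0.0874). Against a limit of 3 reads over the WT LPS group, which would give a mean of 1.16, the knockout LPS mean was 21.3-fold higher. This limit covers counting error in the WT LPS group only. It leaves out the spread between libraries of both groups, so it is no firm lower bound on the difference. The mutant LPS mean of 6.46 was made of 9 reads in 1 library, 1 in another and 0 in the third. The WT PBS mean of 20.9 stood beside 1.39 in knockout PBS spleens, so that knockout means were above WT with LPS and below WT with PBS. Cyp3a11 lies at chr5:145854426-145879964 on the minus strand of mm10, shares 6.73% of its 50-base windows with other Cyp genes, and belongs to the liver-enriched list whose hepatocyte markers summed to 6091 in knockout LPS and 385 in WT LPS spleens.

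The largest folds between lines in lung were those of liver-enriched members in knockout LPS lungs, and none passed the test. In the authors' deposited table Cyp3a11 stood at 2.55 for knockout over mutant (DESeq2, adjusted p = 0.189) and 2.15 for knockout over WT (adjusted p = 0.274), Cyp2a12 at 2.40 for knockout over WT (adjusted p = 0.203), and Cyp2j5 at 2.42 with no adjusted p. For knockout over WT, the authors' deposited table gives Cyp1a1 log2 folds of 2.07 in PBS lungs (DESeq2, adjusted p = 1) and -1.70 in LPS lungs (adjusted p = 0.381). The knockout PBS mean of 389, against 60.5 in WT PBS lungs, came from 2 libraries whose own values were not used here. For Cyp2j9 the authors' deposited table gives -1.05 on the log2 scale for knockout over WT in LPS lungs (DESeq2, adjusted p = 0.381). For Cyp26b1 the authors' deposited table has -0.78 for mutant over WT in PBS lungs (DESeq2, adjusted p = 1). In LPS lungs, Cyp27b1 stood in the authors' deposited table at 0.58 for mutant over WT (DESeq2, adjusted p = 0.972) and at 0.59 for knockout over WT (adjusted p = 0.703). In LPS spleens, Cyp4f18 stood in the authors' deposited table at -1.34 for knockout over WT (DESeq2, adjusted p = 0.496), and Cyp1b1 at 0.76 for knockout over mutant (adjusted p = 0.266). A p that misses the threshold does not show that the lines were alike.

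The LPS ratio in a line lay at least 1 log2 unit from that in WT for 6 of 30 members in mutant lungs, beside 3.82% of all genes, and for 4 of 30 in knockout lungs, beside 5.51% of all genes. In mutant lungs these were Cyp1a1, Cyp26b1, Cyp27b1, Cyp2u1, Cyp4a12b and Cyp4f39, and in knockout lungs Cyp1a1, Cyp27b1, Cyp2j9 and Cyp46a1. Cyp4f39 had means of 46.2, 43.3 and 35.5 in mutant, knockout and WT LPS lungs, against 27.4, 54.8 and 46.8 with PBS, and Cyp4a12b had 4.23, 7.97 and 16.1 against 20.3, 17.2 and 21.7. Cyp1a1 and Cyp27b1 appear in both lists. The Cyp1a1 and Cyp46a1 values in knockout LPS and the Cyp27b1 values in PBS rest on 4 reads or fewer in a group. In spleen the counts were 6 of 19 in mutant, beside 11.1% of all genes, namely Cyp2b10, Cyp2c50, Cyp2e1, Cyp2f2, Cyp2s1 and Cyp4f18, and 20 of 27 in knockout, beside 18.1% of all genes, of which 9 in knockout were outside the liver-enriched list. These 9 were Cyp1b1, Cyp2b10, Cyp2f2, Cyp2s1, Cyp39a1, Cyp4f13, Cyp4f16, Cyp4f18 and Cyp7b1. Of the liver-enriched members measured in spleen, 11 of 12 in knockout passed the limit on low means through LPS alone. In WT spleens 11 of 12 passed it through PBS alone. Such entry favours ratios that lie far apart, so the knockout count cannot be read as an excess over the share of all genes. The lines share the WT groups in this comparison, and the differences of ratios were not tested.

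The partners and regulators of the family were taken from lists of known genes. Of 13 listed redox partners 10 were in the lung table, and 0 were at least 2-fold higher or lower with LPS in all 3 genotypes there, beside 11.3% and 10.3% of all genes. Por, the P450 oxidoreductase, was higher in each genotype, with authors' means of 3600, 3960 and 3610 in mutant, knockout and WT LPS lungs, against 1820, 1890 and 2180 with PBS. The mitochondrial ferredoxin Fdx1 had means of 505, 460 and 481 against 277, 276 and 258. In spleen 1 of 10 measured partners was higher in all genotypes, Fdx1l, and 1 was lower, Cyb5r1, beside 7.98% of all genes in either direction. With lists this short, such counts are near the share of all genes. Of 22 listed receptors and regulators 14 were measured in every genotype in lung, where Tiparp was at least 2-fold higher in each and Ahr, Rarb and Rarg were lower. In spleen, of 13 measured, Tiparp and Vdr were higher in each genotype and Rxra and Rarg were lower. Of the 17 measured retinoid and epoxide partners, Dhrs9, Aldh1a3, Stra6 and Ch25h were higher in each genotype in lung, and those lower included Ephx1 and Lrat. In spleen Stra6 and Ch25h were higher and Lrat and Star lower. On these lists 1 gene passed 0.05 between genotypes, the retinoic acid receptor Rara, for knockout over mutant in LPS lungs, beside 0.243% of all genes. It had means of 706 in knockout LPS and 399 in mutant LPS lungs, and 0.81 on the log2 scale in the authors' deposited table (DESeq2, adjusted p = 0.0296). Xist was at 23.2 and 4510 in the same groups, and the part of sex was not tested. The P450 genes outside the symbol rule showed no 2-fold difference in all genotypes in either tissue. Ptgis had means of 449, 588 and 513 in mutant, knockout and WT LPS lungs, against 822, 896 and 1010 with PBS, and Tbxas1 had 95.1, 93.9 and 79.8 against 61.5, 46.8 and 67.5.

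The members lie on 14 chromosomes, with 8 each on chromosomes 7, 17 and 19. The 8 on chromosome 19 are all Cyp2c genes, and those on chromosome 17 include 5 of the Cyp4f group. By GENCODE M21 transcripts, 17 members share at least 5% of their 50-base windows with another Cyp gene, and 10 share at least 20%. Levels of these 10, which include Cyp2a4, Cyp2a5, Cyp2a12, Cyp2c40, Cyp2c67, Cyp2c68 and Cyp2c69, are uncertain where reads could be split between copies. Cyp27b1, Cyp7b1, Cyp26b1, Cyp2j9, Cyp27a1, Cyp39a1 and Cyp1b1 share none of their windows. Cyp7b1 lies at chr3:18071950-18243338, Cyp26b1 at chr6:84571414-84593908 and Cyp1b1 at chr17:79701537-79715061, all on the minus strand, and Cyp1a1 at chr9:57687928-57703824 on the plus strand of mm10.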

How the data were processed

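Messenger RNA of 15 lung and 15 spleen libraries was sequenced. The submitters' processing notes name STAR 2.5.3a, Bowtie2, SAMtools, bedtools, DESeq2 and the build mm10, while settings and gene annotation are not given in the sources used here. The values are group means as a signal per gene, read counts divided by size factors and averaged by the authors over 3 LPS or 2 PBS libraries (DESeq2 base means, per the file headers). The deposited log2 folds are shrunken towards 0, and they run from the second named group to the first in the text, for example mutant over WT. The deposited adjusted p-values were treated as a score column because a few broken lines hold other numbers, and 6 lung and 5 spleen lines were left out for this reason. For spleen, 1026 split symbols were rejoined.

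The design foresaw tests on single libraries. Since the deposited columns are group means, LPS was set against PBS without a test, as log2 of the means with a pseudocount of 1, which understates folds of low genes. A gene needed an LPS or PBS mean of 10 or more. Genotypes were compared by the authors' adjusted p below 0.05. Library depth came from the spacing of low means, since each mean is a sum of whole reads times a step per library. The recovery was tested on simulated data for lung and spleen, where 12 of 12 groups' steps were found and 99.96% of 2307 low means with a single solution were split correctly. Of low means in the files, 98.7% to 100% fitted whole reads. Limits set by 3 reads over a group were means of 0.898 to 1.50 in lung and 0.730 to 1.37 in spleen, for counting error only.

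Positions and exon lengths were taken from GENCODE M21, in which all 47 members were found, 1 of them by another symbol. Promoters were those of RefSeq. The rule for named genes took lincRNA-Cox2 and Ptgs2, members with an adjusted p under 0.1, the 10 highest members of each tissue, the 6 highest and 6 lowest WT ratios of each tissue, the best known members of each role, and members whose LPS ratio in a line lay at least 1 log2 unit from WT. Others named with small adjusted p-values, with sex-biased expression or as regulators were chosen after their values were seen. 1 listed gene is not reported here. The members, gene lists and rules were chosen with earlier results of these data known. Alternatives were a pseudocount of 5, no filter on low means, an adjusted p of 0.1, centring on the median of all genes, and leaving out the liver-enriched list. Python 3.11.15, pandas 2.3.3, numpy 2.4.6 and matplotlib 3.10.9 were used.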

Additional observations from a re-analysis of the deposited data

How the results depend on the processing

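Of the values recomputed under the alternatives, 62 stayed within 1.5 times the count or within 0.2 of the median log2 ratio, 20 moved further and 2 reversed. With no filter on low means, the median log2 LPS over PBS ratio was -0.18 in mutant and -0.31 in knockout lungs, 14 members were higher and 11 lower in mutant lungs, and 19 were lower in WT lungs. In spleen the same setting gave a median of 0.88 in mutant, which reversed its sign, 0.45 in knockout and -1.17 in WT, with 18 higher and 14 lower in mutant, 11 lower in knockout, and 1 higher and 28 lower in WT. Without the filter the counts include genes with means of a few reads. Without the liver-enriched list, 2 members were higher in knockout lungs. In spleen this gave medians of -0.60 in mutant, -0.62 in knockout, which reversed its sign, and -0.83 in WT, with 2 higher in mutant, 6 higher in knockout and 6 lower in WT. A pseudocount of 5 gave medians of 1.21 in knockout and -1.09 in WT spleens. With 0.1 as the limit on adjusted p in the authors' deposited table, 1 member was called for knockout over WT in LPS spleens. The cause was not tested.

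Leaving out replicates was not run, since the files give group means. No paired analysis was possible because the deposited columns are group means and carry no replicate numbers. Depth limits the low members most. The shallowest spleen library held 0.940 M reads, and 1 read there added 1.78 to its group mean.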
